A study of Mus musculus with 5 samples.

Results

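The mouse genome holds 86 protein-coding genes whose symbols mark them as cytosolic ribosomal protein genes (Rpl or Rps with a number, Rplp0, Rplp1, Rplp2 and Rpsa in GENCODE M21, without the Rps6k kinases and without pseudogenes), out of 21938 protein-coding genes on chromosomes 1 to 19, X and Y. Of these 86 genes, 35 carried a Pou4f1 region at a transcript start in the E16.5 retina and 51 did not. A gene was counted when the midpoint of a region lay within 1 kb of any of its annotated transcript starts. The 35 regions are among the 8038 of the deposited table, and no gene had more than 1.

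The regions come from CUT&Tag, in which an antibody directs a transposase to the chromatin around its target so that the DNA there is cut and tagged. Retinas were taken from wild-type mouse embryos at E16.5, and each sample was a pool of 4 retinas. The libraries were made with a rabbit antibody to Pou4f1 (n = 2), with rabbit IgG as the negative control (n = 2) and with a rabbit antibody to H3K9AC (n = 1, not used here). All groups thus share genotype, tissue and age and differ by antibody. The samples are whole retinas, so the signal is an average over the retinal ganglion cells that express Pou4f1 and all other cells of the tissue. By the paper, the ganglion cells with Pou4f1 are a small part of the retinal neurons at this age. At the Pou4f1 gene itself, 6 regions of the table lie within 10 kb, a count that does not check the antibody, since the table was made from its signal.

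Ribosomal proteins build the large and small subunits of the cytosolic ribosome together with ribosomal RNA, and their genes are active in every cell. Many have compact, CpG-rich promoters, and many transcripts start with a C followed by a run of pyrimidines, the terminal oligopyrimidine (TOP) motif, through which mTOR signaling adjusts their translation. Pou4f1 (Brn3a) is a POU homeodomain factor of retinal ganglion cells and sensory neurons. Mouse mutants of several of these genes have tissue-specific phenotypes. Rpl24 mutants (Belly spot and tail) have defects of the eye and pigmentation, and Rpl38 mutants (Tail short) have skeletal defects.

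The TOP motif is the sequence for which this gene family is known, and it was read at the annotated starts of members with and without a region. A start was counted as TOP when its first base was C and the next 4 were pyrimidines on the strand of the gene. In the windows shown here, each of 30 bases from the mouse genome (GRCm38.p6, the assembly of mm10), the first transcribed base is the 16th letter and the pyrimidine run is in capitals. The first 4 have a Pou4f1 region and the last 4 have none, and the run is present in both sets. The windows lie at chr15:5116630-5116659 (plus strand) for Rpl37, chr1:72711275-72711304 (plus) for Rpl37a, chr14:24490703-24490732 (plus) for Rps24, chr17:24720095-24720124 (plus) for Rps2, chr6:115808733-115808762 (minus) for Rpl32, chr7:99483637-99483666 (minus) for Rps3, chr9:44407680-44407709 (plus) for Rps25 and chr9:64173360-64173389 (plus) for Rpl4.
Rpl37: tggcgggggtgctttCTCTTCCggtctctt
Rpl37a: gcattgcgtcccttcCTCTTCggacttggg
Rps24: cggcagtgagcggtcCTCTTTTCCTCCTCT
Rps2: ccgcggcgcctccctCTTCTTCTTCTTCgg
Rpl32: gcgccgccgccgcctCTTCCTTCTTCCTCg
Rps3: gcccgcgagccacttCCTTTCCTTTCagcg
Rps25: tgggccaccgggcttCCTTTTTTTCCgaca
Rpl4: agtgacaagtctttcCTTTTCCTgtgggag

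At least 1 annotated TOP start was present in 35 of the 86 members (40.7%) and in 8.52% of all coding genes. Among the members with a TOP start, 17 of 35 had a region (48.6%, 95% exact binomial interval 31.4 to 66). For all coding genes with a TOP start it was 615 of 1869 (32.9%), which lies inside this interval. Among the members without an annotated TOP start, 18 of 51 had a region (35.3%, interval 22.4 to 49.9). The annotated starts were not checked against RNA, so a member without such a start may still make a TOP mRNA. The intervals overlap, and a difference was not detectable at this number of genes. With regions of a mean Pou4f1 signal under 100 removed, the order turned, with 10 of 35 (28.6%) and 17 of 51 (33.3%). At the start of the longest coding transcript alone, the shares with TOP were 14% of members and 2.31% of all coding genes. By that start, TOP was in 7 of 35 members with a region (20%, interval 8.44 to 36.9). It was in 5 of 51 without a region (9.80%, interval 3.26 to 21.4), so the order was that of all annotated starts and the intervals overlap.

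The POU motif is the sequence that the POU homeodomain recognizes, and it was searched as ATNAATNAT on both strands. It occurred in 6 of the 35 regions (17.1%, 95% exact binomial interval 6.56 to 33.6), those of Rps2, Rpl36, Rps14, Rpl17, Rps19 and Rpl36a. It occurred in 304 of the 4913 other regions at coding starts (6.19%). The regions of both sets are of like length, with medians of 1048 and 1023 bp, and the median GC content was 59.7% and 63.0%. Matches in 3 of these genes are shown with the motif in capitals, each on the strand that reads ATNAATNAT. They lie in chr17:24720623-24720652 (minus strand) for Rps2, chr7:24883830-24883859 (plus) for Rps19 and chrX:134585545-134585574 (plus) for Rpl36a. A match of these letters is a description of the sequence and does not show that the factor is bound to it.
Rps2: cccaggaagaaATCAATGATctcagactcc
Rps19: ggctaaataaATTAATGATaatcctgtctc
Rpl36a: tgcaacgaagATAAATCATccaggcatacg

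Distances were taken from the annotated start nearest the midpoint of the region. The matches shown lie 364 bp downstream of that start in Rps2, and 789 bp and 142 bp upstream of it in Rps19 and Rpl36a. In Rps19 and Rpl36a the gene start lies nearer to the match than the start used. In Rps14 the match is 352 bp upstream of the start used, and in Rpl17 it is 618 bp downstream. In the window from 250 bp before to 50 bp after the gene start, 2 of 86 members held the motif (2.33%, interval 0.283 to 8.15). The share was 3.46% in all coding genes and 0.839% in those with a CpG-rich start, both inside the interval. Other promoter motifs were counted in the same window and on both strands. Shares of members are over all 86, with or without a CpG-rich start. The ETS-type sequence CCGGAAG was in 23 members (26.7%, interval 17.8 to 37.4) and in 10.8% of all coding genes. Among coding genes with a CpG-rich start it was 19.8%, which lies inside the interval. At the start of the longest coding transcript the ETS-type share was 29.1% of members (interval 19.8 to 39.9). Coding genes with a CpG-rich start then had 19.7%, just below that interval. The YY1-type sequence AANATGGC was in 11 members (12.8%, interval 6.56 to 21.7) and in 6.16% of all coding genes. Among coding genes with a CpG-rich start it was 8.49%, which lies inside the interval. At the start of the longest coding transcript the YY1-type sequence was in 11.6% of members (interval 5.72 to 20.3) and 6.39% of all coding genes. The GC box GGGCGG was in 46.5% of members, 43.0% of coding genes and 75.8% of those with a CpG-rich start, and the NRF1-type sequence GCGCNTGC in 11.6%, 12.3% and 24.5%. In the same order the shares were 5.81%, 2.43% and 4.12% for TGACGTCA, and 10.5%, 12.6% and 4.80% for TATAAA. The ETS-type sequence was in 8 of 35 members with a region (22.9%, interval 10.4 to 40.1) and in 15 of 51 without (29.4%, interval 17.5 to 43.8), and the difference was not tested.

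Ribosomal protein genes carried a region at a start more often than coding genes as a whole, with 35 of 86 (40.7%, 95% exact binomial interval 30.2 to 51.8) beside 24.9% of all coding genes. Large subunit genes had 24 of 52 (46.2%, interval 32.2 to 60.5) and small subunit genes 11 of 33 (33.3%, interval 18 to 51.8). The remaining gene, Rps19bp1, encodes a protein that binds Rps19 and is not part of either subunit, and it had no region. Members were also counted by the kind of promoter, without a test of the difference. Of the 86 members, 61 have a CpG-rich start (GC content of at least 50% and an observed to expected CpG ratio of at least 0.6 in the window around the gene start), and 29 of these had a region (47.5%, interval 34.6 to 60.7). Among all coding genes with a CpG-rich start the share was 44.8%, which lies inside this interval. At the other starts it was 6 of 25 members (24.0%, interval 9.36 to 45.1) beside 11.0% of coding genes. These 6 genes were Rpl17, Rpl27, Rpl3, Rpl38, Rps14 and Rps2. With the start of the gene alone, in place of any annotated start, 2 of the 25 were left (8%), beside 7.57% of coding genes.

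**Figure D1:**
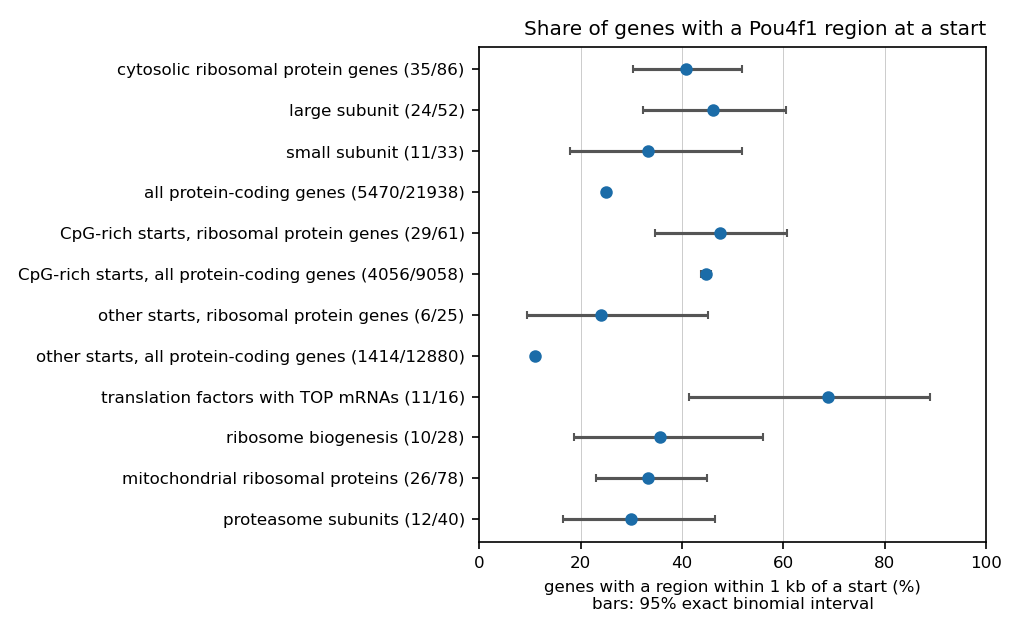
Percent of genes with a Pou4f1 region whose midpoint is within 1 kb of a transcript start (x axis), for ribosomal protein genes and comparison sets (y axis, with genes with a region over genes in the set), with points for the share and bars for the 95% exact binomial interval. Ribosomal protein genes (40.7%) lie above all coding genes (24.9%), while within CpG-rich starts the shares are 47.5% and 44.8%.

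The share was also counted by the number of annotated starts. The median was 6 starts in members and 3 in all coding genes. With 6 or more starts, 21 of 45 members had a region (46.7%) beside 40.9% of coding genes, and with 3 to 5 starts 10 of 31 (32.3%) beside 26.9%. With 1 or 2 starts it was 4 of 10 (40.0%, interval 12.2 to 73.8) beside 12.7%. Hosting a small nucleolar RNA in an intron, as many ribosomal protein genes do, went with a region in 12 of 30 hosts (40.0%, interval 22.7 to 59.4) and 23 of 56 other members (41.1%, interval 28.1 to 55.0). None of 294 ribosomal protein pseudogenes with "-ps" in the symbol had a region at its start, which allows a share of up to 1.02%. Intervals and this limit cover counting error only and treat genes as independent.

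Genes that work beside the ribosomal proteins were counted in the same way. Among genes for ribosomal parts outside the symbol rule, Fau, which encodes a ribosomal protein fused to a ubiquitin-like domain, had a region and Rack1 had none. Of 16 translation factors and related genes with TOP mRNAs, 11 had a region (68.8%, interval 41.3 to 89.0), among them Eef1a1, the elongation factor that delivers aminoacyl-tRNA, and Pabpc1, the poly(A)-binding protein. Of 28 ribosome biogenesis genes, 10 did (35.7%, interval 18.6 to 55.9), including Ncl (nucleolin), Nop56 and Myc. Mitochondrial ribosomal protein genes had 26 of 78 (33.3%, interval 23.1 to 44.9). Genes with proteasome symbols had 12 of 40 (30%, interval 16.6 to 46.5), of which Psmc3ip is no proteasome subunit. The intervals of all these sets overlap that of the cytosolic ribosomal protein genes.

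Most of the 35 regions lie over the start that is used for the main protein. The principal transcript start (the APPRIS principal isoform) was inside the region in 33 of 35, and an annotated start of any kind was inside in 34. The midpoint was within 100 bp of an annotated start in 20 regions, and the median distance was 72 bp. Where the principal start was inside, the region reached a median of 415 bp upstream and 546 bp downstream of it, and 20 of 33 reached further downstream. In 26 regions, coding bases of the gene were included. The exceptions were Rps14 and Rpl38. The Rps14 region lies 1234 to 2376 bp upstream of the principal start, over an alternative start whose position is 162 bp from the midpoint. The Rpl38 region begins 98 bp downstream of the principal start and runs to 782 bp. In 4 cases the start of another coding gene was within 1 kb of the midpoint, so that the region cannot be given to the ribosomal protein gene alone: Rpl7 with Rdh10, Rpl36al with Mgat2, Rpl15 with Nkiras1 and Rpl18 with Sphk2.

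**Figure D2:**
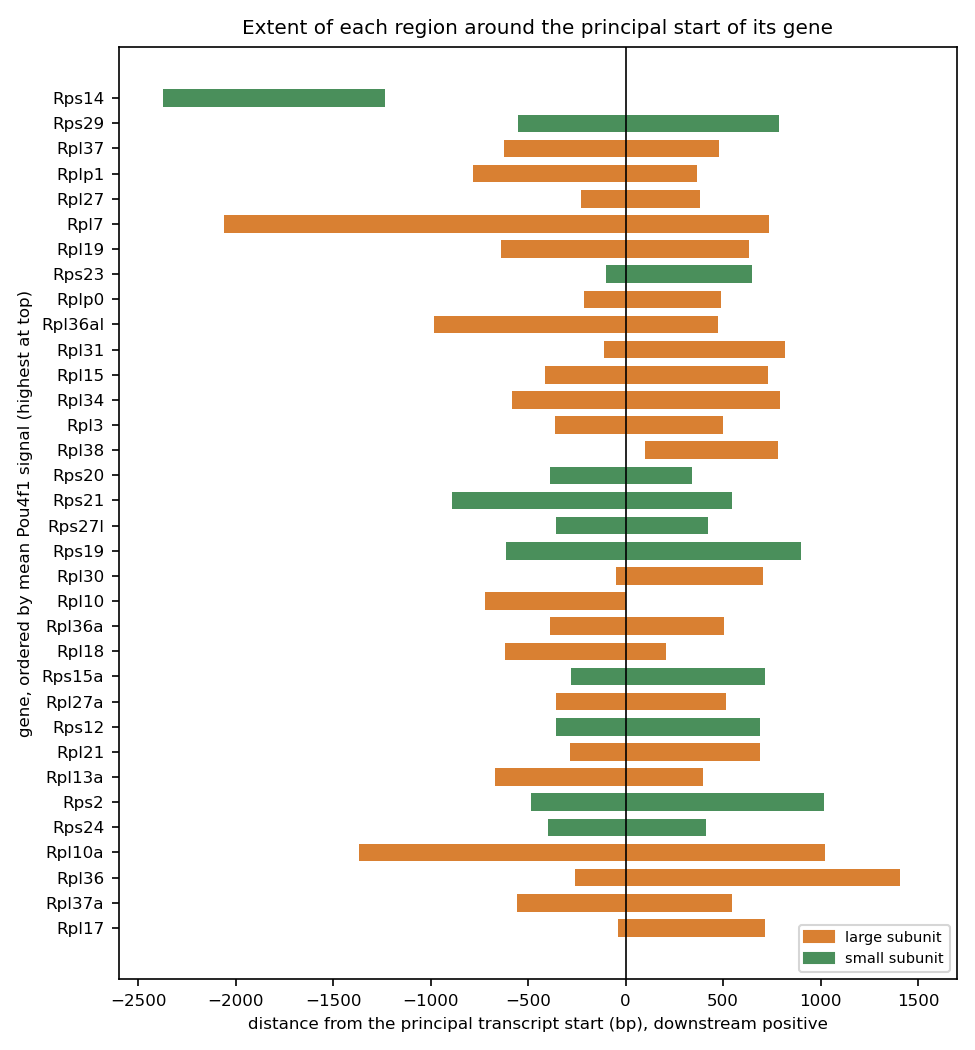
Extent of 34 of the 35 regions (bars, orange for large and green for small subunit genes) in bp from the principal transcript start of the gene (x axis, downstream positive), with genes ordered by mean Pou4f1 signal. The principal start at 0 is covered in 32 of those drawn, and the Rps14 region lies wholly upstream and the Rpl38 region wholly downstream of it.

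The distance limit of 1 kb left few borderline cases. The midpoints farthest from a start among the counted genes included 662 bp upstream for Rpl7 and 574.5 bp downstream for Rpl36. The nearest beyond the limit were 2306 bp downstream of a start of Rpl4, 2650 bp upstream for Rpl35 and 3571 bp downstream for Rpl23a, and these regions lie at the starts of Snapc5, Arpc5l and Tlcd1. No member had a midpoint between 1 kb and 2 kb.

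The signal at the 35 regions was moderate for a coding start. The median was 155 in Pou4f1 replicate 1 (66 to 815) and 99.6 in replicate 2 (26.2 to 890). Of the control libraries, the one named IgG had a median of 0.171 (0 to 38.6). The other, called negative control here and taken as IgG, had a median of 9.30 (0 to 36.0). In the 4913 other regions at coding starts the medians were 183 and 130 in Pou4f1, and 5.55 and 10.3 in the control libraries. The mean of the Pou4f1 replicates had a median of 127 at ribosomal protein starts and 159 at the others. It was below the latter value in 23 of 35 regions, below the lower quartile (115) in 13 and above the upper quartile (227) in 7.

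**Figure D3:**
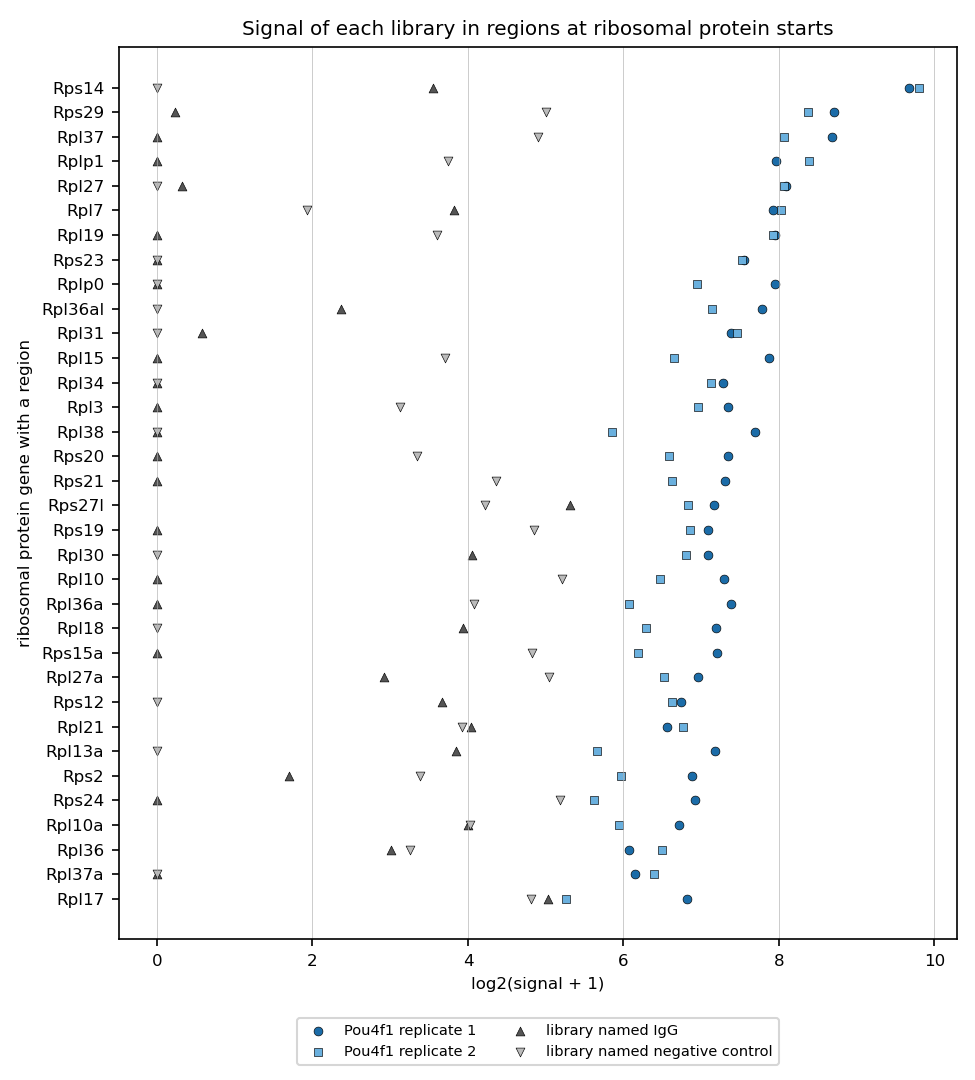
Signal of each library on the log2(signal + 1) scale (x axis) in 34 of the 35 regions, ordered by mean Pou4f1 signal, with circles and squares for the Pou4f1 replicates and triangles for the control libraries. Rps14 is at the top with 815 and 890, and in each of the 34 both Pou4f1 values lie above both control values.

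Rps14, a small subunit protein near the mRNA channel, had the highest signal, with 815 and 890 for Pou4f1 against control values of 10.7 (IgG) and 0 (negative control). Both Pou4f1 libraries were far above both control libraries, and the mean of 853 ranked 17 among 4948 regions at coding starts. The next member, Rps29, had 417 and 329 against 0.171 and 31.2 in the same order of libraries. Its region, on chr12:69158398-69159737 over the start of the gene, also has a start of the 7S RNA gene Rn7s1 within 1 kb of its midpoint. Rpl37, a zinc-finger protein of the large subunit (region chr15:5116023-5117123), had 410 and 266 against 0 and 28.9. Rps29 and Rpl37 ranked 323 and 423, so that Rps14 stood apart from the rest of the family. The Rps14 region was counted through an alternative start, since it lies 1234 to 2376 bp upstream of the principal start.

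Rplp1, one of the acidic proteins of the ribosomal stalk that recruits translation factors (region chr9:61914176-61915326), had 249 and 334 in Pou4f1 and 0 and 12.4 in the control libraries. Rplp0, the base of the stalk (region chr5:115559252-115559954), had 246 and 122 against 0 in each of the control libraries. Both genes were covered at their start, and the other stalk gene, Rplp2, had no region, with the nearest midpoint 4592.5 bp away at Pnpla2. Rpl27 (region chr11:101442068-101442677) had 270 and 266 against 0.250 and 0. Rpl7 had 243 and 260 against 13.1 and 2.80, from a region of 2799 bp that also covers the Rdh10 side. Among the other members with high signal, Rpl19 had 246 and 242 against 0 and 11.2, and Rps23, a protein of the decoding center, had 187 and 184 and was at 0 in both control libraries. In each of these the Pou4f1 values lay above both control values.

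At the low end, Rpl17, which lines the exit tunnel of the nascent chain, had 111 and 37.2 in the Pou4f1 replicates against 31.8 and 27.0 in the control libraries, so that replicate 2 was only just above the control. Rpl37a had 70.1 and 82.7 and was at 0 in both control libraries, and its groups were therefore well apart despite the low signal. Rpl36 had 66 and 89.5 against 7.08 and 8.53. Rpl10a, the protein of the L1 stalk, had 104 and 60.6 against 15 and 15.4, and Rps24 had 120 and 48.1 against 0 and 35.3. In Rps24 replicate 2 lay close to the library called negative control.

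Several members are known from mouse mutants or from work outside the ribosome. Rps19 and Rps20 are mutated in mice with dark skin. Rps19 had 135 and 115 against 0 and 27.9, and Rps20 had 161 and 94.7 against 0 and 9.17. Rpl27a, mutated in the Sooty foot ataxia mouse, had 123 and 91.2 against 6.54 and 32.0, with values apart between the groups as in Rps19 and Rps20. Rpl38 (region chr11:114668707-114669391) had 205 and 56.7 and was at 0 in both control libraries. Rpl24 and Rps7, both also known from mouse mutants, had no region. The nearest midpoint to Rpl24 was 4173 bp away at the start of Zbtb11, with 166 and 90.8 against 0 and 45.7, and that to Rps7 was 88.5 kb away. Rpl5 and Rpl11, which with 5S ribosomal RNA form the particle that binds Mdm2, had no region either, with the nearest midpoints at 31.4 and 90.8 kb. Rps6, the substrate of S6 kinase, Rps27a, whose product is fused to ubiquitin, and Rpsa had their nearest midpoints at 108, 145 and 17.0 kb.

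Of the 8 paralogs and retrocopies among the members, 2 had a region. Rps27l, a p53-responsive paralog of Rps27, had 143 and 112 in the Pou4f1 replicates against 38.6 and 17.6 in the control libraries, whereas Rps27 itself had no region. Rpl36al, an autosomal copy of the X-linked Rpl36a, had 219 and 140 against 4.17 and 0, in the region it shares with Mgat2. Rpl36a had 165 and 66.2 against 0 and 15.9. Rpl3l, Rpl10l and Rpl39l, which are used mainly in muscle or testis, and Rpl22l1, Rpl7l1 and Rps27rt had no region at a start. Of the genes they resemble, Rpl3, Rpl10 and Rpl7 had a region, and Rpl39, Rpl22 and Rps27 had none.

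In all, 51 members had no region within the limit. Besides Rplp2, Rpl24, Rps7, Rpl5, Rpl11, Rps6, Rps27a, Rpsa, Rps27, Rps19bp1 and the 6 paralogs named above, the large subunit genes without one were Rpl4, Rpl6, Rpl7a, Rpl8, Rpl9, Rpl12, Rpl13, Rpl14, Rpl22, Rpl23, Rpl23a, Rpl26, Rpl28, Rpl29, Rpl32, Rpl35, Rpl35a, Rpl39 and Rpl41. The small subunit genes without one included Rps3, Rps3a1, Rps4x, Rps9, Rps10, Rps13, Rps15, Rps16, Rps18, Rps25, Rps26 and Rps28. The median distance from these 51 genes to the nearest midpoint was 42.0 kb, and in 11 it was under 10 kb. Apart from Rpl4, Rpl35, Rpl23a, Rpl24 and Rplp2, these included Rps27rt (4000.5 bp), Rpl12 (4832.5 bp), Rpl35a (5426.5 bp), Rps28 (6617 bp) and Rpl3l (7442.5 bp, the region of Rps2). Rpl39, on the X chromosome, was the farthest at 1224 kb. A gene without a region may hold Pou4f1 signal below the level at which a region was called, which the table cannot show.

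Replicate 1 was above replicate 2 in 28 of 35 regions. The ratio of replicate 2 to replicate 1 had a median of 0.742 (0.221 to 1.36), beside 0.698 in the other regions at coding starts. It was above 1 in 7 of 35 (20%) and 15.8% of these, and under 0.5 in 9 of 35 (25.7%) and 19.5%. The highest ratios were those of Rpl36 (1.36), Rplp1 (1.34) and Rpl37a (1.18), and the low ones included Rpl38 (0.276) and Rpl17 (0.334). Across the 35 regions the replicates gave Pearson's r = 0.931 and Spearman's rho = 0.713, and across the other regions at coding starts 0.835 and 0.772. Without Rps14, r was 0.788 over 34 regions. These are correlations across regions of the same 2 libraries, and regions are not replicates.

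**Figure D4:**
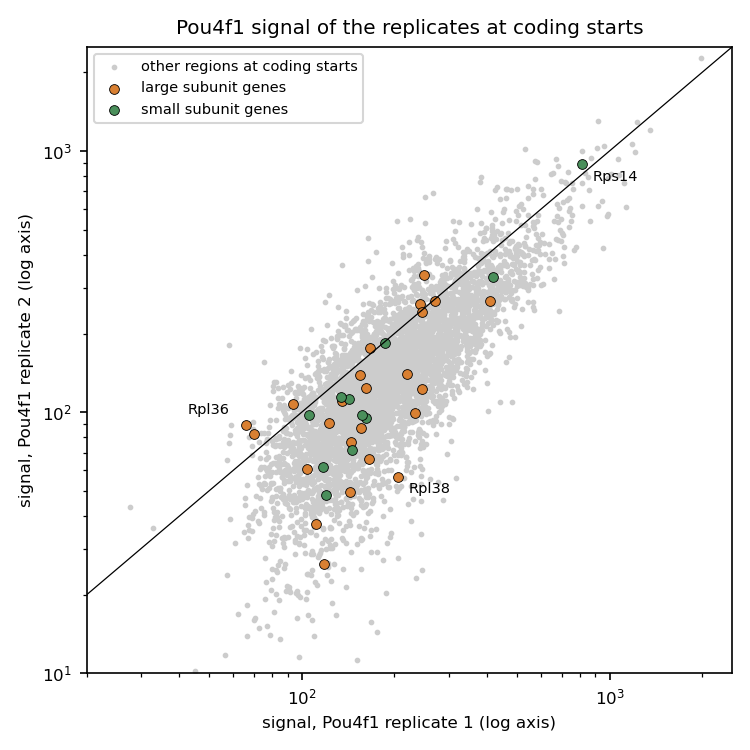
Signal of Pou4f1 replicate 1 (x axis) against replicate 2 (y axis), both on log axes, for the ribosomal protein regions (orange and green) and the other regions at coding starts (grey, of which 8 lie outside the axes), with the line of equal values. In 28 of the 35 ribosomal protein regions the point is below the line, and Rps14 lies far from the rest at the upper right.

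The Pou4f1 and IgG libraries were set against each other with limma, fitted on log2(signal + 1) to the whole table of 8038 regions, and a region was called at an adjusted p under 0.05. Of the 35 regions, 19 were higher in Pou4f1 (54.3%) and 0 lower. An unadjusted p under 0.05 was found in 22 of the 35 and in 6135 of all 8038 regions. The share of all regions called higher was 64.8%, and that of all regions at coding starts was 62.0%, so that the members were not called more often than the background. The log2 difference was above 0 in all 35, with a median of 4.92 (1.11 to 7.96) beside 5.22 in all regions, but it was below 0 in 7 members when columns were divided by their totals and in 2 with the IgG signal multiplied by 4. Both Pou4f1 libraries were above both control libraries in 34 of 35, where all regions of the table gave 96.5%, and in 12 of 35 after division by column totals, where they gave 39.1%. The regions were chosen by the authors for their Pou4f1 signal, with rabbit IgG as the control of the peak calling. The calls and this excess over IgG are therefore set in part by the choice and are no independent test of it.

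Rpl27, Rps23, Rpl34, Rpl37a and Rpl31 had the smallest adjusted p, from 0.00222 to 0.00231. Rpl27 had a log2 difference of 7.91 (standard error 0.39) and Rps23 of 7.54 (standard error 0.37). Rps23, Rpl34 and Rpl37a were at 0 in both control libraries, and Rpl27 and Rpl31 at 0 in 1 of them and under 0.5 in the other. All 5 members at 0 in both control libraries, which also include Rplp0 (adjusted p = 0.00313) and Rpl38 (adjusted p = 0.00965), passed, as did 99.7% of all such regions. With 1 control library at 0, 8 of 20 members passed (39.4% of all such regions), and with signal in both 6 of 10 (74.1%). The call therefore moves with the control values.

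Among the members with signal in both control libraries, the smallest adjusted p was that of Rpl36 (log2 difference 3.15, standard error 0.42, adjusted p = 0.0122). Rpl21, with 93.4 and 107 in Pou4f1 against 15.4 and 14.1, had a log2 difference of 2.68 (standard error 0.38, adjusted p = 0.0142). Rpl7 (5.11, adjusted p = 0.0189), Rpl10a (2.31, adjusted p = 0.0306) and Rps2 (3.89, adjusted p = 0.0334) followed. The other members called higher were Rpl36al (adjusted p = 0.0193), Rps14 (0.0235), Rpl3 (0.0371), Rpl19 (0.0392), Rplp1 (0.0401), Rps27l (0.0456) and Rps20 (0.0466). The log2 difference of Rps14 was the highest of the family, 7.96, with a standard error of 1.45.

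The remaining 16 members did not pass. Rps29 and Rpl37, next to Rps14 by signal, had log2 differences of 5.92 each with standard errors of 1.93 and 1.98 (adjusted p = 0.0651 and 0.0686), and in both 1 control library was near 0 and the other at about 30. Rps19 (4.54, adjusted p = 0.107) and Rpl27a (2.76, adjusted p = 0.0700) did not pass either. The smallest difference was that of Rpl17 (1.11, standard error 0.72, adjusted p = 0.221). A p that misses the threshold does not show that these starts are without Pou4f1.

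**Figure D5:**
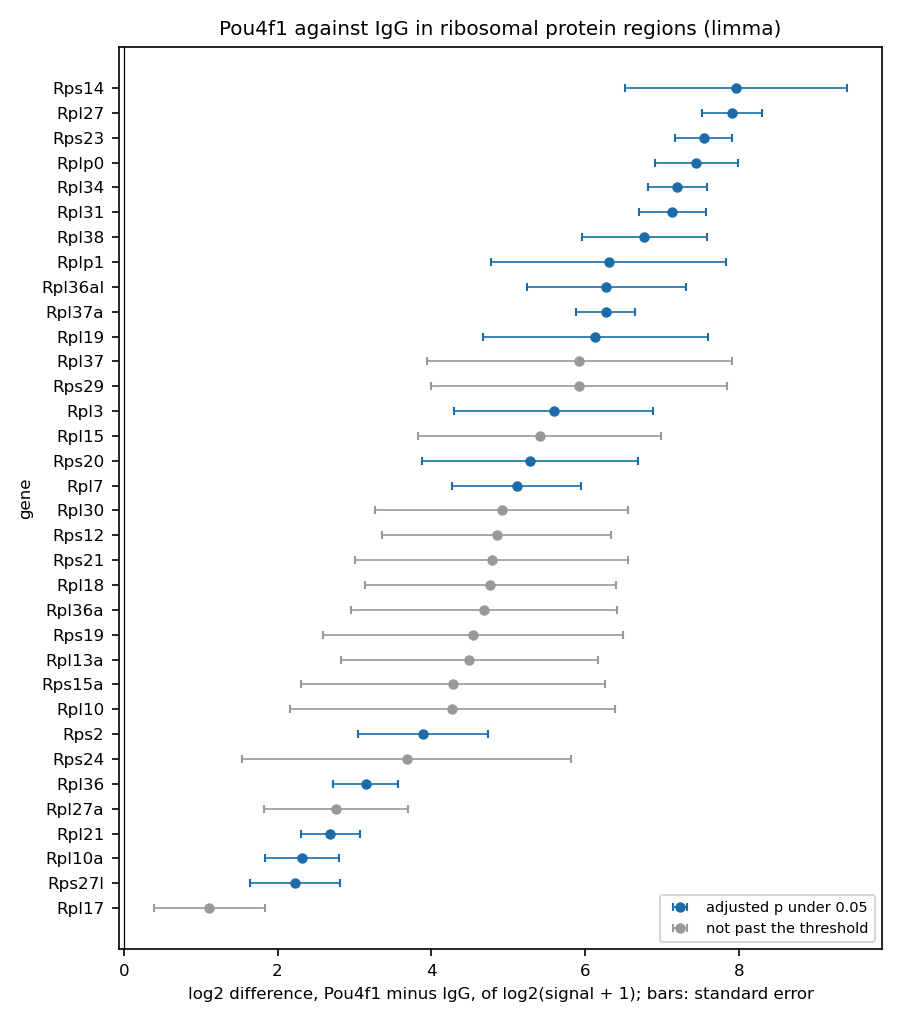
Log2 difference, Pou4f1 minus IgG, of log2(signal + 1) with its standard error from limma (x axis) for 34 of the 35 regions (y axis), in blue where the adjusted p was under 0.05 (19 regions) and grey where it was not (15). With the values as deposited, all differences are above 0, from 1.11 in Rpl17 to 7.96 in Rps14, while after division by column totals 7 of the 35 were below 0.

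The count of calls rests on the few libraries. Without Pou4f1 replicate 1 or replicate 2, 10 members were called, and 33 were called when either control library was left out. Each of these fits has 1 library in a group, which is assumed to vary like the other group, so these counts do not test the calls. In the same order the share of all regions called higher was 29.4%, 30.9%, 94.4% and 95.9%. The 10 kept were among the 19 in both cases, and those lost were Rpl19, Rpl3, Rpl36al, Rpl7, Rplp1, Rps14, Rps2, Rps20 and Rps27l. With the control signal multiplied by 2, 9 members were called (36.7% of all regions), with it multiplied by 4, 7 (26.8%), and with columns divided by their totals, 6 (22.7%). The coverage behind the values is low in the control, with at most 770 covered bases of a control library in a member region. The Pou4f1 replicates had medians of 3410 and 1714 covered bases.

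The coding-start regions of neighboring pathways were measured in the same way. The 11 regions at translation factors with TOP mRNAs had 164 to 568 in Pou4f1 replicate 1 and 77.7 to 386 in replicate 2, and limma called 6 of 11 higher, with a median log2 difference of 4.92. The 10 at ribosome biogenesis genes had 124 to 384 and 62.6 to 342, of which 6 were called, with a median of 4.98. The share of all regions at coding starts called higher was 62.0%. Of the genes of these lists named above, Ncl, Nop56 and Myc passed. Fau, Eef1a1 and Pabpc1 did not (limma adjusted p = 0.107, 0.0511 and 0.0690). Pabpc1 had the highest signal among the genes of these lists, with 386 in replicate 2. The median of the mean Pou4f1 signal was 239 at the translation factors, 175 at the biogenesis genes, 180 at the mitochondrial ribosomal protein genes and 150 at the proteasome genes, beside 127 at the cytosolic ribosomal protein genes.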

How the data were processed

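The authors aligned paired-end reads to mm10 with Bowtie2 2.4.5 and called regions with SEACR, with rabbit IgG as the negative control. They deposited 1 signal value per region and library. For the scaling of the signal, the depth and the handling of multiply mapped reads, nothing is given in the sources used here. Ribosomal protein exons resemble many pseudogenes, so this handling can change values in regions with exons. The column called negative control here is labelled only as negative, with a number and no antibody. It was taken as IgG because rabbit IgG is the sole negative control that the paper names for CUT&Tag, and no label states this. The control columns carry no replicate number, and whether samples came from separate litters is not given, so p-values measure the spread between these samples.

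Signal times region length was a whole multiple of a library-specific step for 100% of values (tolerance 0.05 steps). The steps were 45.0 and 61.2 in Pou4f1 and 76.2 and 88.9 in the control libraries. They limit the precision and do not give read counts. The product divided by the step is called covered bases, and the commonest value under 100 in both control libraries was 80.

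GENCODE M21 gave the genes and starts, and GRCm38.p6 (the mm10 assembly) the sequence. The members, lists and tests were chosen with earlier results of these data known. The text names the members with the 6 highest and lowest signals, the 3 highest and lowest replicate ratios, overlapping groups, POU matches, shared starts, paralogs, known mutants and the members without a region. A few genes and a sequence that this rule covers are counted in the totals but not reported here. The 13 coding genes outside chromosomes 1 to 19, X and Y were left out, and Bystl of the biogenesis list was not matched. Pou4f1 was tested against IgG (n = 2 each) over 8038 regions on the log2(signal + 1) scale with limma 3.58.1 (R 4.3.3) and Benjamini-Hochberg adjustment. The fit was also run on simulated data with normal errors and a common difference on that scale, which does not test the calls made here. A log2 difference on this scale understates that of low regions. Counts used Python 3.11.15, pandas 2.3.3 and scipy 1.17.1. Alternatives covered the distance, the choice of start, the scaling, the pseudocount, low regions and each library left out.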

Additional observations from a re-analysis of the deposited data

How the results depend on the processing

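The count of ribosomal protein regions called higher in Pou4f1 was 19. It was 9 with IgG signal multiplied by 2, 7 with it multiplied by 4 and 6 with columns divided by their totals. It was 11 with a pseudocount of 0.1 (43.4% of all regions called) and 32 with one of 10 (92.6%), and from 10 to 33 with 1 library left out. Every one of the 19 remained with the pseudocount of 10 or with a control library left out. With a trend of spread on level it was 17 (66.4% of all regions), and with low and short regions removed 19. Both Pou4f1 libraries were above both control libraries in 12 of 35 after division by column totals, and the median Pou4f1 signal was then 67.2. The median replicate ratio was 0.649 with a distance of 500 bp or 3 kb. The share of members with a TOP start fell to 14% at the start of the longest coding transcript, to 11.6% at the APPRIS principal start and to 9.30% at the gene start, beside 2.31%, 2.25% and 2.33% of all coding genes. The APPRIS start, also used for the share with a region, and the gene start were chosen after seeing the data. The shares of members with each of the other motifs stayed inside their intervals under the alternatives run. So did the share with a region, which ranged from 31.4% (mean Pou4f1 signal under 100 removed) to 43.0% (3 kb). The shares of all coding genes were then 21.1% and 26.2%. Within CpG-rich starts the order turned when regions of a mean Pou4f1 signal under 100 were removed, with 37.7% of members and 38.5% of coding genes. Under the other alternatives the share of members with a CpG-rich start stayed above that of coding genes.

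Dividing by column totals uses sums over regions that were selected by Pou4f1 signal with IgG as the control. The median log2 difference of all regions then shifted by -2.48, and by -1.02 with IgG signal multiplied by 4. Under the division the log2 difference reversed for Rpl10a (-1.64), Rpl17 (-2.87), Rpl21 (-1.27), Rpl27a (-1.17), Rpl36 (-0.73) and Rps27l (-1.76), and with IgG signal multiplied by 4 for Rpl17 (-0.85). The cause was not tested. Of the other comparisons of a single region with an alternative, 268 kept direction and side of the threshold, 59 lost and 40 gained the call. No paired analysis was possible because the control columns carry no replicate number. With 2 libraries per group, a call depends on the spread shared across regions, and control values of 0 or of few covered bases decide many of them.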
